A study of Mus musculus with 6 samples.

Results

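The genes that build, modify and carry heparan sulfate were examined in hepatic tissue of ARSB-null and control mice. The list held 36 genes, chosen by their known roles in chain polymerization, sulfation, editing of the finished chain and as core proteins. Of these, 35 were read by a probe set whose annotation gives that gene's symbol alone, out of 19938 genes so named, and each of the 35 had 1 probe set. Ndst1 had no such probe set and was not analysed here. The arrays came from 3 ARSB-null and 3 control mice, all untreated males of 12 weeks on the C57BL/6J background, with 1 array per liver. The ARSB-null mice were homozygotes from a colony bred out of heterozygous founders, and the controls were C57BL/6J mice; no source states that they were littermates, so genotype and colony cannot be told apart. The mice of both groups carry the numbers 4, 5 and 6. Values are log2 signals, quantile-normalized by the authors.

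Heparan sulfate is a linear sulfated polysaccharide that is assembled in the Golgi on serines of a small set of core proteins. After a linkage region has been laid down, EXTL3 starts the chain, the complex of EXT1 and EXT2 extends it, and a series of sulfotransferases and an epimerase then write the sulfation pattern to which growth factors, lipoproteins and proteases bind. In the liver the chains line the space of Disse, and syndecan-1 on hepatocytes takes up remnant lipoproteins through them. ARSB, the lysosomal enzyme missing here, removes 4-sulfate groups from chondroitin 4-sulfate and dermatan sulfate, and heparan sulfate is not its substrate.

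For Arsb itself the ARSB-null livers gave log2 signals of 7.63, 7.46 and 7.64, and the control livers 10.21, 10.23 and 10.21, which matches the labels of all 6 arrays. Hepatocyte markers were present at the high signals of liver, with Alb between 14.07 and 14.29 on all arrays. Deviations from the group means correlated most between the arrays numbered 4, at 0.396 over all probe sets, so the results below were also computed without that pair. Whole liver was measured, and fewer cells of a type cannot be told from less RNA per cell.

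No heparan sulfate gene passed the test between ARSB-null and control liver. With limma and adjustment over all 35556 probe sets, 0 of the 35 had an adjusted p under 0.05, beside 0.0197% of all probe sets, and the smallest adjusted p was 0.378 (Hpse). At an unadjusted p under 0.05, 2 genes averaged above the controls (Hpse and Hs3st1, 5.71% of the 35, against 2.0% of all genes) and 2 below them (Extl1 and Extl3, 5.71%, against 3.80% of all genes). The median log2 difference, ARSB-null minus control, was -0.01 over the 35 genes and -0.02 over all genes, with 17 differences above 0 and 18 below. The median size of the difference, regardless of sign, was 0.11 for the 35 genes and 0.092 for all genes. For 34 of the 35 the 95% interval lay within a 2-fold change in either direction, and for 30 within 1.5-fold. The exception to the first was Extl1.

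**Figure D1:**
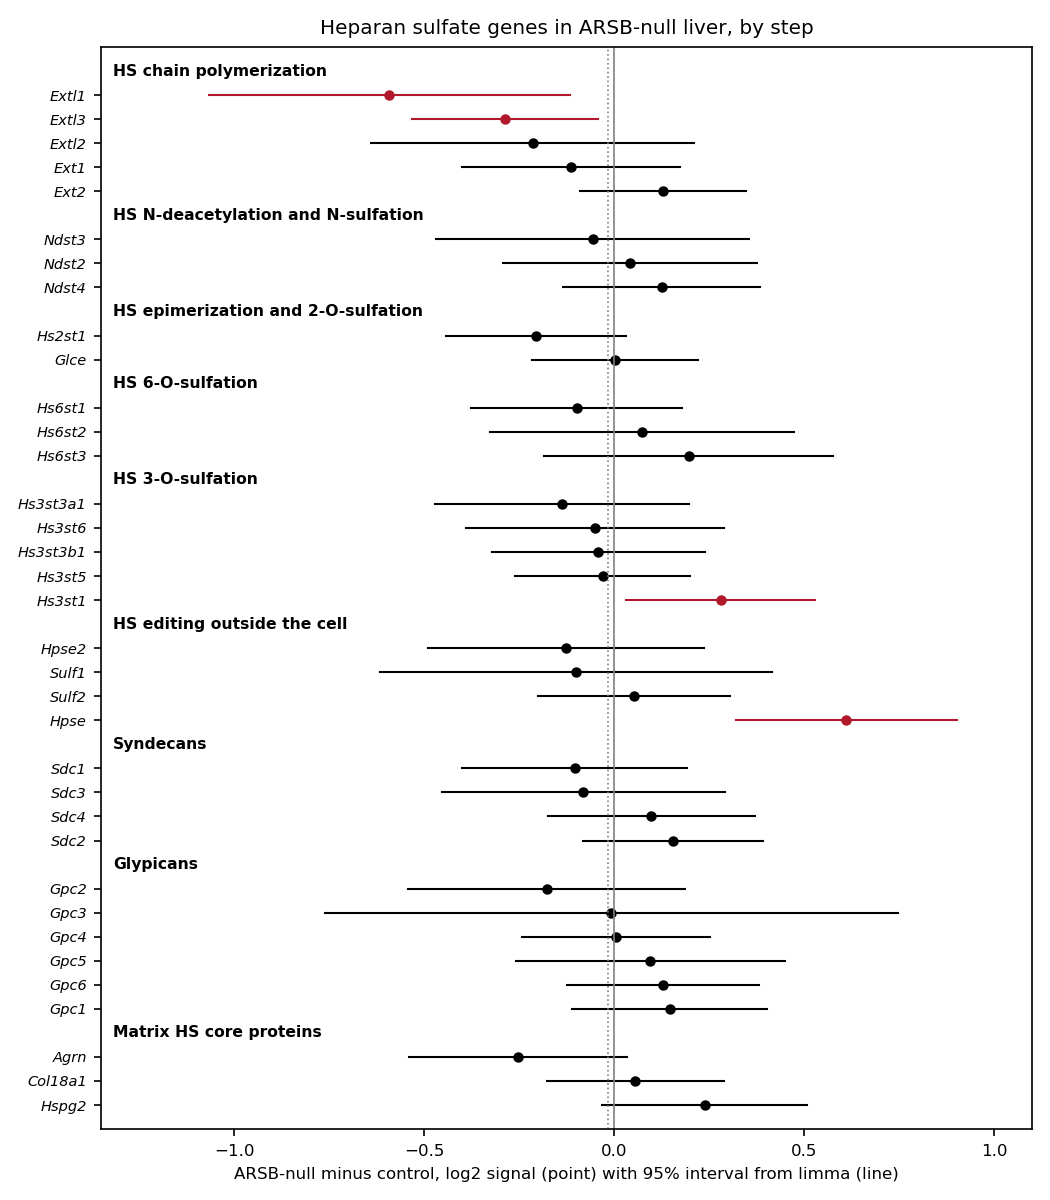
ARSB-null minus control difference in log2 signal (horizontal axis) for the 35 heparan sulfate (HS) genes, grouped by step; points are differences, lines are 95% intervals from limma, red marks an unadjusted p under 0.05, and the dotted line is the median of all genes (-0.02). Hpse (0.61) and Extl1 (-0.59) lie farthest from 0, and 33 of the 35 differences are smaller than 0.3.

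The ARSB-null and control livers did not overlap in 9 of the 35 genes, which is 25.7% of them, beside 13.0% of all genes. In 5 of these every ARSB-null liver was above every control (14.3%, beside 4.73% of all genes): Hpse, Hs3st1, Hspg2, Sdc2 and Ext2. In the other 4 it was below (11.4%, beside 8.32% of all genes): Extl1, Extl3, Agrn and Hs2st1. No test was made of these shares, since the list was drawn up with earlier results of these arrays known. With 3 mice against 3, the exact permutation test of a single gene cannot give a two-sided p below 0.1. Groups that do not overlap always give that value, so it adds nothing for the 9.

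**Figure D2:**
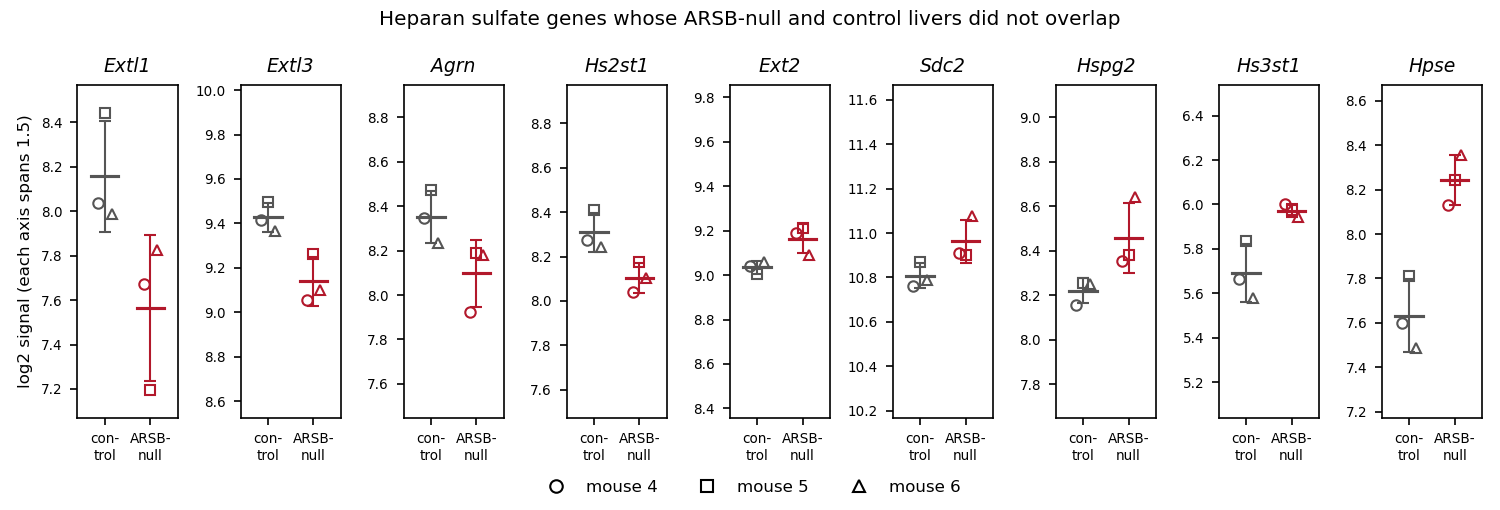
Log2 signal (vertical axes, each spanning 1.5) of the 9 heparan sulfate genes whose groups did not overlap, in control (grey) and ARSB-null (red) livers, with a symbol for each mouse number, the mean as a horizontal line and the SD over 3 mice as whiskers. The gap between the groups is widest for Hpse and narrowest for Ext2, Sdc2, Agrn and Hs2st1.

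Hpse encodes heparanase, the endoglycosidase that cuts heparan sulfate chains in the matrix, at the cell surface and in lysosomes, and that macrophages and platelets carry. In the ARSB-null livers numbered 4, 5 and 6 its log2 signal was 8.13, 8.24 and 8.36, and it was 7.60, 7.81 and 7.49 in the controls with those numbers. The lowest ARSB-null liver was thus above the highest control. The ARSB-null livers averaged 8.24 ± 0.11 (SD, n = 3), and for the control livers the average was 7.63 ± 0.16 (SD, n = 3). The difference was 0.61 on the log2 scale, with a standard error of 0.12. On the linear scale this is 1.53-fold, with a 95% interval of 1.25 to 1.87. By p, Hpse stood at place 106 among 19938 genes. Its adjusted p was 0.378 from limma over all probe sets, 0.374 with the replicate number as a block, and between 0.0672 and 0.861 over all alternatives, so that it passed in none of them. The difference stayed between 0.54 and 0.70 throughout, and was 0.65 without both arrays numbered 4.

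Markers of Kupffer cells and macrophages were read as well, and none passed the adjusted threshold (smallest adjusted p 0.448, limma). Of the 8 listed, 50% had an unadjusted p under 0.05, beside 5.80% of all genes, in both directions. Cd68 (log2 difference 0.53) and C1qa (0.39) had a higher mean in ARSB-null liver, and Adgre1 (-0.35) and Csf1r (-0.33) a lower one. The summed linear signal of the 8 was 5929 to 6309 in ARSB-null and 5739 to 7406 in control liver, ranges that overlap. Their part in the difference of Hpse was not tested.

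Hpse and Extl1 had the largest differences in either direction, and their promoters are shown for that reason, from RefSeq on GRCm38.p6 (minus strand, 300 bases around the gene's start, 5′ to 3′). Capitals mark matches on either strand to CAGGT, which the study took as the consensus for the transcription factor MITF, to CACGTG, to the GC box GGGCGG or to TGANTCA, the AP-1 motif.
Hpse, chr5:100719667-100719966: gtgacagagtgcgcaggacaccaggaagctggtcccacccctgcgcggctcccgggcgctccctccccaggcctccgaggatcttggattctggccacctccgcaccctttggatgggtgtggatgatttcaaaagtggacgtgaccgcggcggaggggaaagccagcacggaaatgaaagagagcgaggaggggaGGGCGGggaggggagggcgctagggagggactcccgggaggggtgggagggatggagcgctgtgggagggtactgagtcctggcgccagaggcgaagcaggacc
Extl1, chr4:134372498-134372797: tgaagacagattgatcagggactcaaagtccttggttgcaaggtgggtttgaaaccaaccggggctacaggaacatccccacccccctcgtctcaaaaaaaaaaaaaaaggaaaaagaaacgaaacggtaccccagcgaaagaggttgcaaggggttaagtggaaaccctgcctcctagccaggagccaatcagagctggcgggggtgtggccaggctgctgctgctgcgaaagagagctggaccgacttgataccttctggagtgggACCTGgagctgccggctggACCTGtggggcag

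The Hpse window holds 1 GC box and no other match. That of Extl1 holds CAGGT at 2 places, both on the opposite strand, and no other match. Of the 35 genes, 27 had a promoter in the table, with 33 windows between them. CAGGT was found in 13 of the 33 (50.1% of all 32851 promoters hold it), CACGTG in 3 (7.15% of all), GGGCGG in 23 (35.7% of all) and TGANTCA in 0 (7.81% of all). These are matches of letters, and binding was not measured in these livers.

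Chain polymerization was the step with the lowest median difference, -0.21 on the log2 scale, and 4 of its 5 genes averaged below the controls. None passed the adjusted test. The median was -0.10 without the control numbered 5 and -0.32 without the control numbered 6. EXTL1 is a glycosyltransferase related to the EXT polymerases and acts in chain elongation. The log2 signal of Extl1 was 7.67, 7.20 and 7.83 in ARSB-null and 8.04, 8.44 and 7.99 in control liver. Both mice numbered 5 were the extremes of their groups, in opposite directions. The difference was -0.59 (standard error 0.20, adjusted p = 0.744), a 1.51-fold lower signal with an interval of 1.08 to 2.10, and it was -0.41 without the ARSB-null mouse numbered 5 and -0.45 without the control numbered 5.

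EXTL3 adds the N-acetylglucosamine that commits a linkage region to heparan sulfate rather than chondroitin sulfate. Extl3 gave 9.05, 9.26 and 9.10 in ARSB-null and 9.42, 9.50 and 9.37 in control liver, a difference of -0.29 (standard error 0.10, adjusted p = 0.775), or 1.22-fold lower with an interval of 1.03 to 1.45. The polymerase subunits themselves differed less. Ext2 was at 9.19, 9.21 and 9.09 against 9.04, 9.0 and 9.06, without overlap but with an interval that spans 0 (difference 0.13, interval -0.09 to 0.35). For Ext1 the difference was -0.11 and the groups overlapped. Extl2, whose product transfers N-acetylhexosamine to the linkage region, differed by -0.21 (interval -0.64 to 0.21), with both mice numbered 6 the lowest of their groups.

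N-deacetylation and N-sulfation, done by the NDST enzymes, opens the way for every later sulfation. None of the 3 measured genes of the family differed beyond its spread. Ndst4 gave 4.52, 4.35 and 4.31 in ARSB-null and 4.29, 4.16 and 4.35 in control liver (difference 0.13, interval -0.13 to 0.38). Ndst3 gave 5.17, 5.13 and 4.92 against 5.49, 4.91 and 4.98 (difference -0.06, interval -0.47 to 0.35). In Ndst2 the difference was 0.04 (interval -0.29 to 0.38). The mean signals of Ndst3 and Ndst4 were under the median of all probe sets, 6.54, and Ndst1 was not measured, so this step is read mainly from Ndst2.

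Glce encodes the epimerase that turns glucuronic into iduronic acid, and Hs2st1 the 2-O-sulfotransferase that acts mainly on the product. Glce was the steadiest of the pathway, at 8.01, 8.03 and 8.13 in ARSB-null and 8.08, 8.06 and 8.02 in control liver. Its interval of -0.22 to 0.22 bounds a change at about 1.17-fold. Hs2st1 gave 8.04, 8.17 and 8.10 against 8.28, 8.41 and 8.24, lower in all ARSB-null livers, by -0.21 with an interval of -0.44 to 0.03 (adjusted p = 0.877).

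The 6-O-sulfotransferases add the sulfates that growth factor receptors read. Hs6st3 gave 6.49, 6.35 and 6.35 in ARSB-null and 6.52, 5.94 and 6.14 in control liver (difference 0.20, interval -0.18 to 0.58). Hs6st1 gave 10.42, 10.39 and 10.62 against 10.44, 10.70 and 10.58 (difference -0.10, interval -0.38 to 0.18). Hs6st2 differed by 0.07, and the groups overlapped in all 3 genes.

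The 3-O-sulfotransferases place the rarest sulfate, which antithrombin needs for binding when HS3ST1 has made it. Hs3st1 gave 6.00, 5.97 and 5.94 in ARSB-null and 5.67, 5.83 and 5.58 in control liver. The ARSB-null livers lay close together and above every control. The difference was 0.28 (standard error 0.10, adjusted p = 0.796), or 1.21-fold with an interval of 1.02 to 1.44. The mean signal of this probe set was under the median of all probe sets, 6.54. The other 4 genes of the step had slightly lower means in ARSB-null liver and overlapped. Hs3st3a1 gave 6.06, 5.65 and 5.87 against 5.97, 6.16 and 5.86 (difference -0.14), and Hs3st3b1, Hs3st5 and Hs3st6 differed by -0.04, -0.03 and -0.05.

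Sulf1 and Sulf2 encode the extracellular sulfatases that strip 6-O-sulfates from finished chains, and are thus relatives of ARSB that do act on heparan sulfate. Sulf2 differed by 0.05 (interval -0.20 to 0.31) and Sulf1 by -0.10 (interval -0.62 to 0.42). Hpse2, whose product binds heparan sulfate and lacks the cutting activity of heparanase, gave 5.42, 5.30 and 5.02 in ARSB-null and 5.56, 5.16 and 5.40 in control liver (difference -0.13, interval -0.49 to 0.24). Of the 4 editing genes, Hpse was thus the one without overlap.

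Core proteins showed smaller differences than the enzymes at either extreme. Of the 13, 8 averaged above the controls and 5 below, the median was 0.06, the range -0.25 to 0.24, and 0 had an unadjusted p under 0.05. That median was -0.0066 without the control numbered 6, 0.12 without both arrays numbered 4 and 0.11 with array weights, so it has no settled sign. Perlecan, encoded by Hspg2, and agrin, encoded by Agrn, are large proteoglycans of basement membranes. Hspg2 gave 8.35, 8.38 and 8.64 in ARSB-null and 8.16, 8.26 and 8.25 in control liver, higher in all ARSB-null livers by 0.24 (interval -0.03 to 0.51, adjusted p = 0.875), and by 0.15 without the ARSB-null liver numbered 6. Agrn went the other way, with 7.92, 8.19 and 8.18 against 8.35, 8.47 and 8.23, lower by -0.25 (interval -0.54 to 0.03, adjusted p = 0.873), and by -0.17 without the ARSB-null liver numbered 4. The third matrix core protein, collagen XVIII (Col18a1), differed by 0.06 (interval -0.18 to 0.29).

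Syndecans are the transmembrane carriers of heparan sulfate. Sdc2 gave 10.91, 10.90 and 11.08 in ARSB-null and 10.76, 10.87 and 10.79 in control liver, without overlap, although the lowest ARSB-null liver and the highest control were only just apart (difference 0.16, interval -0.08 to 0.39, and 0.099 without the ARSB-null liver numbered 6). Sdc4 gave 11.29, 11.24 and 11.55 against 11.31, 11.23 and 11.25 (difference 0.10), its ARSB-null liver numbered 6 above the rest. Sdc1, the lipoprotein receptor of hepatocytes, differed by -0.10 (interval -0.40 to 0.19) and Sdc3 by -0.08 (interval -0.45 to 0.29).

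Glypicans are tethered to the outer membrane by a lipid anchor. Gpc1 gave 7.97, 7.81 and 7.78 in ARSB-null and 7.79, 7.59 and 7.75 in control liver (difference 0.15, interval -0.11 to 0.40). Gpc6 gave 7.46, 7.48 and 7.38 against 7.46, 7.28 and 7.21 (difference 0.13, interval -0.12 to 0.38). The groups overlapped in all 6 genes, with differences of -0.18 in Gpc2, -0.01 in Gpc3, 0.01 in Gpc4 and 0.10 in Gpc5.

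**Figure D3:**
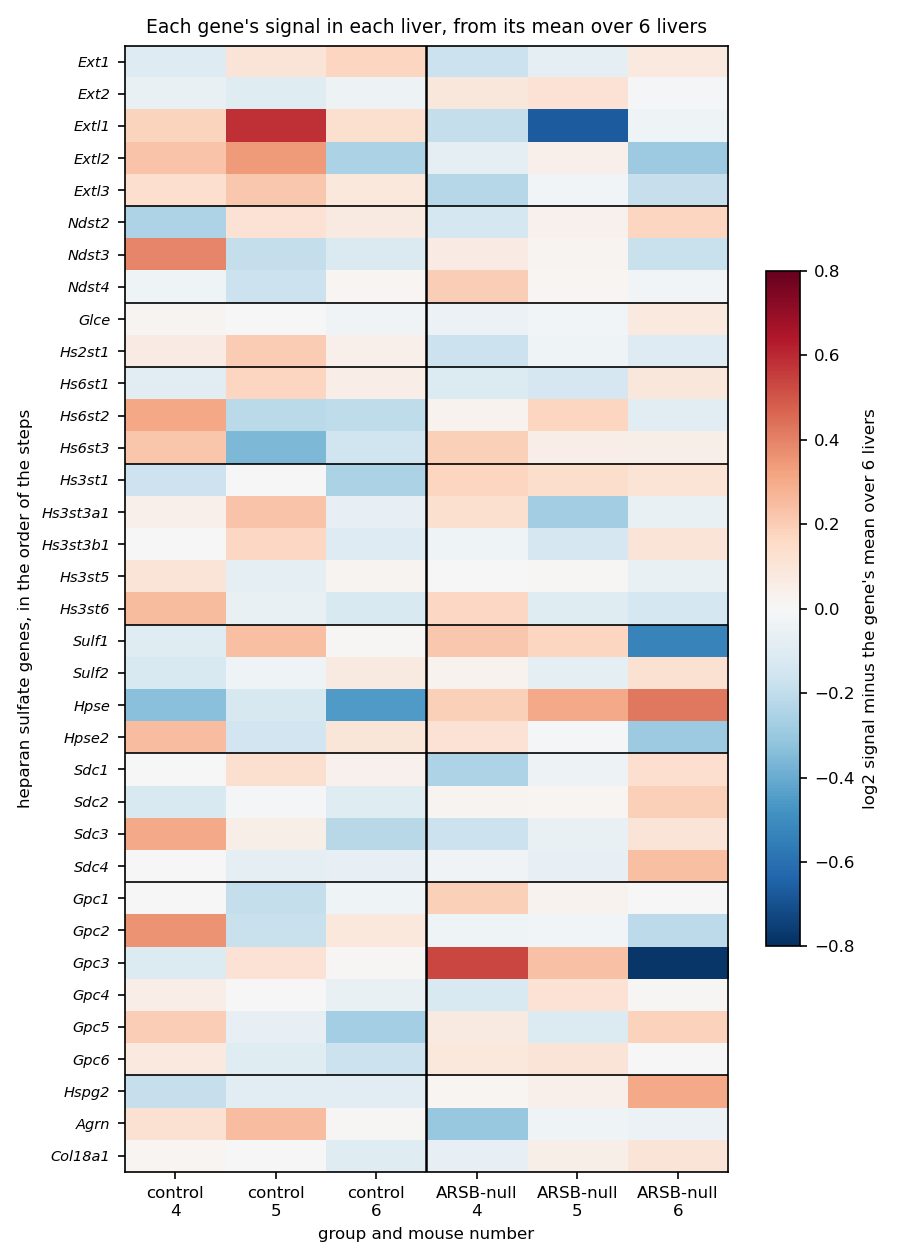
Log2 signal of each of the 35 genes (rows, in the order of the steps) in each liver (columns), as the deviation from the gene's mean over the 6 livers, from blue (-0.8) to red (0.8). Hpse is the row that parts the groups most clearly, and the darkest cell is Gpc3 in the ARSB-null liver numbered 6.

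Gpc3 and Sulf1, named for their spread after their values were seen, varied most among mice of 1 group, with pooled SDs of 0.49 and 0.32 beside a median of 0.14 over the 35 genes. Gpc3, a glypican of fetal liver and liver tumors, gave 7.22, 6.92 and 5.90 in ARSB-null and 6.57, 6.80 and 6.69 in control liver. Sulf1 gave 6.77, 6.73 and 6.03 against 6.46, 6.80 and 6.57. In both, the ARSB-null liver numbered 6 was the lowest of all 6 and the ARSB-null liver numbered 4 above the controls with numbers 4 and 6. Without the ARSB-null liver numbered 6 the difference became 0.38 in Gpc3 and 0.14 in Sulf1.

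Of the 4 listed markers of mesothelium, the cell layer that covers the liver's capsule, 3 had their lowest value in that liver too. Upk3b gave 8.33, 8.02 and 7.12 in ARSB-null and 7.87, 7.97 and 7.76 in control liver, and Gpm6a gave 7.73, 7.85 and 6.75 against 7.36, 7.43 and 7.30. Msln gave 7.29, 7.19 and 6.52 against 7.10, 6.99 and 6.92. The ARSB-null liver numbered 6 was the lowest of all in each of these 3, while for Wt1 it was 6.47 and the lowest was the control numbered 6, at 6.17. The summed linear signal of the 4 ran from 428 to 801 in ARSB-null and from 569 to 646 in control liver. Low values in that liver were not confined to mesothelial markers. Among stellate cell markers, it was the lowest of all for Lrat, at 9.26, and the highest of all for Des, at 7.27. The part of mesothelial cells in the spread of Gpc3 and Sulf1 was not tested.

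**Figure D4:**
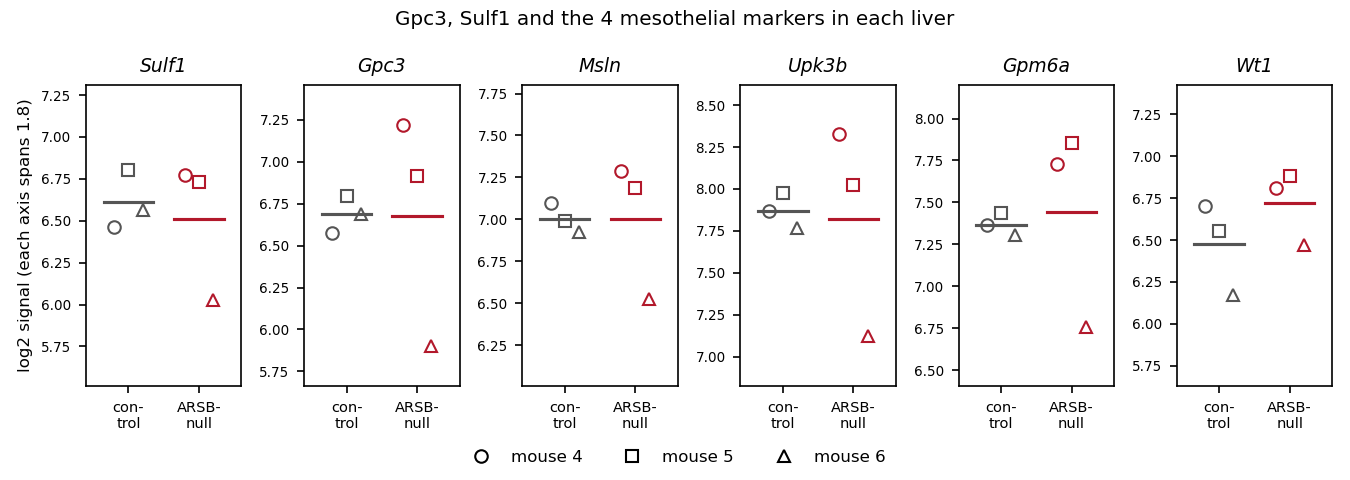
Log2 signal (vertical axes, all of equal span) of Sulf1, Gpc3 and the 4 mesothelial markers in control (grey) and ARSB-null (red) livers, with the mouse number as symbol and bars at the means (n = 3). The ARSB-null liver numbered 6 lies far under the others for Sulf1, Gpc3, Msln, Upk3b and Gpm6a, at 5.90 for Gpc3 and 7.12 for Upk3b.

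Markers of other cell types that carry these core proteins gave no called gene. The summed linear signal of 8 endothelial markers was 6691 to 7428 in ARSB-null and 6682 to 7318 in control liver. For 8 stellate cell and fibroblast markers it was 6606 to 7616 against 6551 to 6955, and the groups overlapped in both lists. Clec4g and Dcn, the brightest of their lists, had the most weight in these sums. Of the stellate cell and fibroblast markers, 6 averaged above the controls and 2 below. In Reln and Des every ARSB-null liver was above every control (25% of the 8, beside 4.73% of all genes), and in 0 below. Lyve1, an endothelial marker, differed by -0.31 at an unadjusted p under 0.05. The summed signal of 7 hepatocyte markers was 82624 to 88368 against 81230 to 85488. Of 5 cholangiocyte markers the sum was 548 to 606 in ARSB-null and 650 to 700 in control liver, without overlap. Sox9 (difference -0.35), the brightest of them and so of most weight in the sum, was the one at an unadjusted p under 0.05. The other cholangiocyte markers each overlapped between the groups, with differences of 0.02 in Krt19, 0.08 in Epcam, -0.12 in Krt7 and -0.04 in Cftr. Of 4 B and plasma cell markers, Jchain had a higher mean (1.30, adjusted p = 0.0990) and Cd79a (-0.40) and Ms4a1 (-0.49) lower ones. At an unadjusted p under 0.05 were 12.5% of the endothelial, 20% of the cholangiocyte and 75% of the B and plasma cell markers, beside 5.80% of all genes. The part of these cells in the differences above was not tested.

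The steps before and after chain synthesis also held no called gene. Of 13 genes for the linkage region and the sugar and sulfate donors, 0 were higher and 1 lower at an unadjusted p under 0.05, with a median difference of -0.06. The share lower was 7.69%, beside 3.80% of all genes. The lower gene was Ugdh, which makes the UDP-glucuronic acid for all glycosaminoglycans but keratan sulfate. It gave 11.76, 11.85 and 11.83 in ARSB-null and 12.20, 12.07 and 12.09 in control liver (difference -0.30, adjusted p = 0.694). Of 7 measured lysosomal enzymes that degrade heparan sulfate, 0 had an unadjusted p under 0.05, and the median was 0.02. In 2 of the 7 every ARSB-null liver was above every control and in 1 below, together 42.9%, beside 13.0% of all genes. The smallest p of the 7 was that of Gusb, beta-glucuronidase (difference -0.28, adjusted p = 0.851).

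Proteins that carry heparan sulfate only at times, listed with a pair of further 3-O-sulfotransferases, had 3 of 6 genes at an unadjusted p under 0.05, beside 5.80% of all genes, and none past the adjusted threshold. Nrp1, a receptor for semaphorins and VEGF, gave 10.07, 10.27 and 10.01 in ARSB-null and 10.54, 10.64 and 10.55 in control liver, a difference of -0.46 (standard error 0.11, adjusted p = 0.501) without overlap. Cd44, the hyaluronan receptor, differed by -0.32, and Tgfbr3, or betaglycan, by 0.26 with 8.56, 8.58 and 8.55 against 8.31, 8.38 and 8.21. The pathway most like this one is the synthesis of chondroitin and dermatan sulfate chains, with a median of -0.01 over 16 genes. At an unadjusted p under 0.05, 1 of the 16 was higher (6.25%, beside 2.0% of all genes). Of the 16, 0 were lower, beside 3.80% of all genes. The higher gene was Chst15, which adds the 6-sulfate to galactosamine that already bears a 4-sulfate. It gave 9.17, 9.13 and 9.23 in ARSB-null and 8.84, 8.85 and 8.87 in control liver (difference 0.32, adjusted p = 0.621, limma). Whether the lists differ from each other was not tested.

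**Figure D5:**
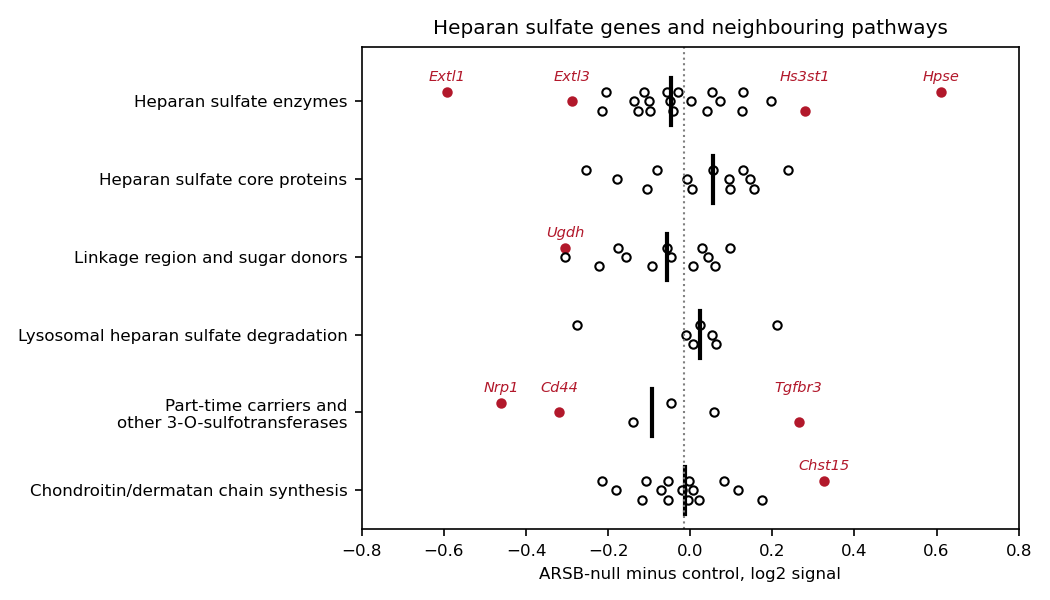
ARSB-null minus control difference in log2 signal (horizontal axis) of single genes (points) in 6 lists, with black bars at the list medians and a dotted line at the median of all genes (-0.02). Red points, named, had an unadjusted p under 0.05; the medians run from -0.09 for the part-time carriers to 0.06 for the heparan sulfate core proteins, the latter -0.0066 without the control numbered 6.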

How the data were processed

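Hepatic RNA of 6 mice was hybridized to whole-transcript mouse gene arrays. The authors applied quantile normalization and a summary per probe set (the submitters' notes name RMA and Partek, versions not given in the sources used here), and the deposited values are log2 signals for 35556 probe sets. Scanner files were not used, so there are no detection calls, and quantile normalization can hide a shift shared by most genes. Genes were named through GEO's platform annotation of probe sets with 1 symbol (21789). The methods name a different array version from that annotation.

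All probe sets were fitted by limma 3.58.1 in R 4.3.3 (lmFit, eBayes, group as the only term) with Benjamini-Hochberg adjustment, two-sided, threshold 0.05. The code was tested on simulated arrays with the means and spreads of these. After adjustment limma called 0 of 50 log2 changes of 0.3 there, 7 of 50 of 0.6 and 34 of 50 of 1. A gene that did not pass is thus not shown to be unchanged. The methods' analysis of variance was an alternative, as were the others named under the dependence on processing. Members and lists were chosen with earlier results of these data known. Values in every array are given for heparan sulfate genes with an unadjusted p under 0.05 or without overlap between groups. They are also given for the 2 heparan sulfate genes of smallest p in each step. In the other pathway lists, genes at an unadjusted p under 0.05 are named, or else the one of smallest p. Other genes named were chosen after their values were seen.

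Deviations from the group means correlated at 0.396, 0.159 and 0.193 across probe sets between mice numbered 4, 5 and 6. All were above 0.1, the value set for pairing, and the number was therefore used as a block in an alternative. The main fit had no pairing. Deviations within a group cancel out, so these correlations depend on each other and cannot show that the numbers pair the mice. ARSB-null 6 and control 5, with different numbers, correlated at 0.220, and ARSB-null 5 and control 6 at 0.0801. Over the heparan sulfate genes alone the same-numbered values were 0.104, -0.136 and -0.0152. The labels do not say what a number shares. The p-values weigh the difference between groups against the spread among mice within a group, which limma moderates with that of all probe sets. The number of livers, 6, limits the precision.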

Additional observations from a re-analysis of the deposited data

How the results depend on the processing

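Under all 17 alternatives 0 of the heparan sulfate genes passed the adjusted threshold, none higher and none lower, in limma as in the analysis of variance. All 585 single values kept their side of it, 31 differences changed sign, all of them in 13 genes, and 22 genes never changed sign. At an unadjusted p under 0.05 there were 2 higher and 2 lower, beside 2.75% and 3.19% of all probe sets. The replicate block, which treats mice of the same number as pairs, gave 2 higher and 1 lower (4.42% and 4.15% of all). With only the probe sets of 1 symbol as well, chosen after seeing the data, it gave 3 higher and 4 lower (4.42% and 7% of all). The higher count was 3 in the analysis of variance (2.65%) and with array weights (5.39%). It was 1 with array medians centred (1.95%), among probe sets above the median signal (3.77%, with 25 of the 35 genes) and with a trended robust prior (2.86%). Leaving out both arrays numbered 4 gave 0 lower (3.63%). Without single arrays the counts were 1 to 2 higher and 0 to 3 lower; 1 was higher without the ARSB-null arrays 4 or 5 or the control 6, and the lower count was 1 without any one ARSB-null array, 0 without the control 5 and 3 without the control 6. The median difference over the genes, -0.01, was -0.0401 with array medians centred and 0.0188 with array weights, and -0.0221 to 0.0138 without single arrays. The causes were not tested. The smallest adjusted p of any heparan sulfate gene was that of Hpse throughout, 0.0672 with the block and probe sets of 1 symbol and 0.861 at most. With no detection calls, which of the 10 genes under the median signal were above background is not known.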
